A study of Mus musculus with 106 samples.

Results

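The spinal cords of male C57BL/6J mice kept at 10 °C were compared with those of mice kept at 22 °C, across all genes. The libraries were found by the column names of the deposited spinal cord table: 5 columns are named for the cold and 5 for room temperature, 10 of the 106 libraries of the series. The mice were 8 weeks old at the start. The cold group was brought down in steps, 5 days at 18 °C and then 5 at 14 °C, before 2 weeks at 10 °C, and the control group stayed at 22 °C for the same time. The labels give an age of 11 weeks for both groups. All mice were wild type, with free access to chow and water in a 12 h light cycle. They were housed 2 per cage without nesting material. Each spinal cord library came from 1 mouse, so that p-values rest on the spread between mice, although 2 libraries of a group may come from cage mates, which the labels do not show. The question was which transcripts of the cord differ once mice have adapted to a moderate cold. One column of the 22 °C group carries the number 6, which no sample title has. It was used as a library of that group and is called library 6 here.

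The spinal cord takes part in cold defence at several points. Cold-sensitive fibres from the skin end in its dorsal horn, sympathetic preganglionic neurons in its thoracic segments drive brown fat and skin vessels, and motor neurons in its ventral horn carry shivering to the muscles. White matter, made of axons wrapped by oligodendrocytes, fills much of its volume. Immediate early genes such as Fos are transcribed within minutes of activity in neurons and other cells, heat shock chaperones keep proteins folded, and the circadian clock is a loop of transcription factors that runs in nearly every cell.

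Library totals lay between 21953207 and 27911542 counts at 10 °C and between 24998922 and 29029283 at 22 °C. No pair of libraries held identical counts, and the correlation of log CPM across genes lay between 0.968 and 0.995 for all pairs. Neurons, motor neurons, astrocytes, oligodendrocytes, microglia and endothelial cells were all represented, with every one of their listed markers in the genes tested. The oligodendrocyte markers summed to between 25272 and 37667 CPM (counts scaled to library size after adjustment by the trimmed mean of M values, TMM), and the 39 Hox genes, patterning genes that mark the level along the trunk, summed to between 821 and 997 CPM.

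Transcripts of other tissues varied between libraries. The 8 hepatocyte markers summed to 115 CPM in 10 °C library 3 and 375 CPM in 22 °C library 1, against 3.56 to 4.38 CPM in the other libraries. In 10 °C library 4 the ribosomal RNA-like transcripts reached 12804 CPM, against 627 to 2201 CPM elsewhere. Skeletal muscle markers ranged from 5.01 to 112 CPM at 10 °C and from 8.77 to 193 CPM at 22 °C, with the highest value in 22 °C library 6. Schwann cell markers, which come from the nerve roots, ranged from 378 to 1828 CPM and from 421 to 1251 CPM, and meningeal fibroblast markers from 236 to 602 CPM and from 144 to 637 CPM. Both groups overlapped in each of these sums, and no member of the hepatocyte, Schwann cell, meningeal or muscle lists passed the test described below with all 10 libraries. With libraries left out some did. Of 8 Schwann cell genes 5 were higher at 10 °C without 22 °C library 1, 4 without 10 °C library 3 and 7 without both, with a median log2 fold change of 1.03, and 7 again without both and 10 °C library 4 (1.16). In the last set 8 of 10 muscle genes were lower (median -3.67). Of the meningeal genes 4 were lower without 22 °C library 2, and of 7 hepatocyte genes tested 4 were lower without 10 °C library 3 and 1 was higher without 22 °C library 1. The part of these tissues in the results was not tested, and sets with libraries left out differ between the temperatures in nerve root and muscle transcripts as given here.

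Hox genes of the caudal segments varied far more between libraries than those of the thoracic ones, and the labels do not say what length of cord was taken. Hoxd11, a gene of the lumbar and sacral segments, was at 14.9, 3.67, 0.870, 7.74 and 12 CPM in the 10 °C libraries and 8.17, 12.7, 12.6, 1.37 and 0.0374 CPM in the 22 °C libraries. Its level was high in 10 °C libraries 1, 4 and 5 and in 22 °C libraries 1, 2 and 3, low in 10 °C libraries 2 and 3 and 22 °C library 4, and nearly absent from 22 °C library 6. Hoxc12, still more caudal, was at 0 CPM in 10 °C libraries 2 and 3 and in 22 °C libraries 4 and 6 and was seen in the other 6. Hoxd10 in the same order was at 39.5, 17.4, 11.8, 25.9 and 27.1 CPM in the 10 °C libraries and 22.6, 26.5, 27.9, 12.1 and 0.674 CPM in the 22 °C libraries. The thoracic gene Hoxb8 was at 164 to 203 CPM at 10 °C and 168 to 188 CPM at 22 °C. Of 32 Hox genes tested, 3 rose (Hoxb5, Hoxc10 and Hoxd9) and 1 fell (Hoxb3) by the test described below. By the same limit 2.82% of all genes tested rose and 2.96% fell. With single libraries left out 2 to 5 rose, the most without 22 °C library 2, and Hoxb3 kept its call only without 10 °C library 1 or 2 or 22 °C library 4. For Hoxd9 (log2 fold change 0.38 ± 0.13 (SE)) and Hoxc10 (log2 fold change 0.39 ± 0.16 (SE)) the lowest library was 22 °C library 6, at 13.8 and 35.7 CPM. In bulk tissue like this, fewer cells of a type and less RNA per cell cannot be told apart.

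**Figure D1:**
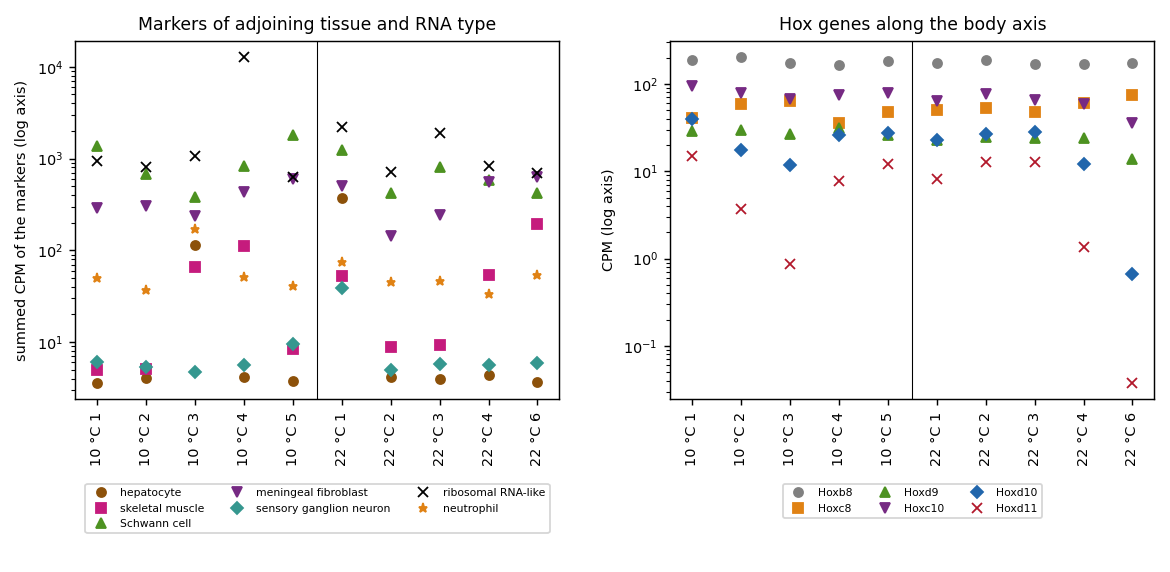
Left, summed CPM of marker lists for tissue that adjoins the cord, for ribosomal RNA-like transcripts and for neutrophils, in each of the 10 spinal cord libraries (log axis). Right, CPM of 6 Hox genes in the same libraries (log axis). The vertical line parts the 5 libraries at 10 °C from the 5 at 22 °C. Liver transcripts stand out in 10 °C library 3 and 22 °C library 1, and Hoxd11 runs from 0.0374 CPM in 22 °C library 6 to 14.9 CPM in 10 °C library 1.

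The cord changed little. Of 23420 genes in the table, 14382 had an average log2 CPM above 0 and were tested in edgeR by the two-sided F test of its quasi-likelihood fit. By the limits of the study, a fold above 1.5 with p (unadjusted) no higher than 0.05, 39 genes were called, or 0.271% of those tested, 26 of them higher and 13 lower at 10 °C. Without the fold limit, 406 genes were higher (2.82%) and 426 lower (2.96%) at p of at most 0.05, together 832, where 5% would pass if p were uniform. Rose and fell are used below for genes past this unadjusted limit, and the adjusted p is given for some of them. A number alone in parentheses after a gene is its log2 fold change (10 °C over 22 °C). After Benjamini-Hochberg adjustment over all genes tested, 1 gene passed an adjusted p of 0.05 in this edgeR fit, which is 0.00695%. That gene was Fos, and Spry4, Sfrp5 and Cry1 came next with adjusted p = 0.0672. Every other gene described here had an adjusted p of at least 0.202 by this test. The edgeR exact test, which the study used, put 12 genes under the same adjusted p and DESeq2 put 17, and 11 genes were in both sets: Fos, Egr1, Spry4, Dnajb1, Hspa1b, Cry1, Nr1d1, Sfrp5, Rnf43, Hif3a and Alas2. Of 14382 genes, 13490 differed by less than 1.2-fold. The 5 libraries at 10 °C lay wholly above the 5 at 22 °C for 115 genes (0.800%) and wholly below for 117 (0.814%). Counts were also simulated with the same libraries and 100 genes changed by each fold. There the test recovered 78% of genes changed 1.5-fold and 91% of genes changed 2-fold at an adjusted p under 0.05. The adjusted limit is stricter where fewer genes change, so these shares do not carry over to the cord, where 1 gene passed. The 39 calls became 114 without 22 °C library 2, 81 without 10 °C library 5 and 77 without 10 °C library 3, and the count at an adjusted p under 0.05 ranged from 0 to 4 with single libraries left out, with 2 without 22 °C library 2, 4 without 10 °C library 4, 1 without 22 °C library 4 and 0 without each of the others.

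**Figure D2:**
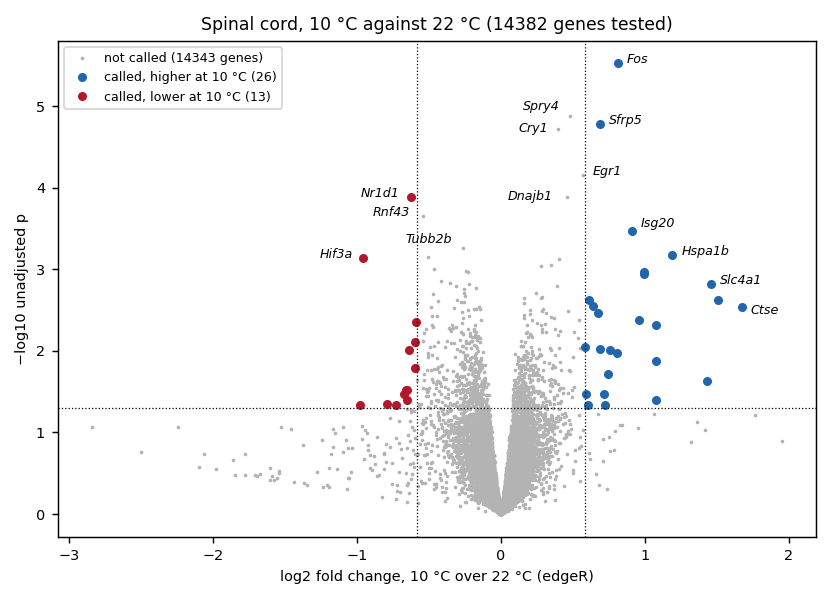
Log2 fold change (10 °C over 22 °C, horizontal axis) against −log10 of the unadjusted p (vertical axis) for the 14382 genes tested in spinal cord with edgeR. Dotted lines mark the limits on fold and p, and 26 genes were called higher and 13 lower. Fos has the lowest p, followed by Spry4, Sfrp5, Cry1 and Egr1.

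Fos, the immediate early gene whose protein pairs with Jun in the AP-1 factor, had the lowest p of all genes. Its levels were 18.9, 23.3, 21.1, 22.6 and 21.3 CPM in the 10 °C libraries and 10.9, 14.3, 10.5, 14.1 and 11.1 CPM in the 22 °C libraries. The groups did not overlap, and the means were 21.4 ± 1.70 and 12.2 ± 1.85 CPM (SD, n = 5 each). Fos rose 1.76-fold (log2 fold change 0.81 ± 0.099 (SE), adjusted p = 0.0425 by edgeR with Benjamini-Hochberg adjustment). The gene lies at chr12:85473890-85477273 on the plus strand (GRCm38). Egr1, a zinc finger immediate early gene, was at 45.4, 44.9, 41.1, 33.1 and 44.7 CPM in the 10 °C libraries and 24.8, 31.6, 25.1, 29.2 and 29.9 CPM in the 22 °C libraries. It too rose without overlap (log2 fold change 0.57 ± 0.097 (SE), adjusted p = 0.202). Fosb, a relative of Fos, rose less clearly, from 2.03 ± 0.241 to 2.90 ± 0.526 CPM (SD, n = 5 each), with 1 library of each group in the other's range (log2 fold change 0.51 ± 0.15 (SE)).

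These were the 3 of 12 immediate early genes that rose, and none fell, where 2.82% of all genes tested rose and 2.96% fell. The median log2 fold change of the 12 was 0.21, against 0.000235 over all genes tested. All 12 values were positive, with the lowest, 0.028, in Dusp1, while 7203 of the 14382 genes tested had positive values. Junb (log2 fold change 0.35 ± 0.17 (SE)) and Nr4a1 (log2 fold change 0.20 ± 0.10 (SE)) missed the threshold, as did Arc, Jun, Npas4, Ier2, Dusp1, Btg2 and Egr2. Without the 2 libraries with liver transcripts 4 of the 12 rose, and without these and 10 °C library 4 also 4, in sets where 7 of 8 Schwann cell genes were higher at 10 °C too. The count was 5 without 10 °C library 3 alone.

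The promoter of Fos is shown because it holds a half-site of the cyclic AMP response element through which calcium and cyclic AMP signals reach this gene. The window runs from 250 bases before to 50 after the start of transcription (RefSeq, GRCm38.p6, chr12:85473640-85473939, plus strand), and the capitals mark TGACGT, searched on both strands.
Fos: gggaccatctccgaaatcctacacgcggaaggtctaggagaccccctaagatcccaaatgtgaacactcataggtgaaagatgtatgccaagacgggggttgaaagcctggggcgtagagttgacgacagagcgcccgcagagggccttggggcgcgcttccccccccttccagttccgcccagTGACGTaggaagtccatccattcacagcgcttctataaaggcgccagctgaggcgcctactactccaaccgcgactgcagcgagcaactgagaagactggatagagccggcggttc
The half-site starts 66 bases before the start of transcription. It was found in 7.51% of 32851 mouse promoter windows of the same length, and in 5 of the 9 immediate early genes with a window: Fos, Egr2, Npas4, Dusp1 and Btg2. The share is over single windows, while a gene is counted if any of its windows holds the half-site. Fosb, which also rose, has none in its window.

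Spry4, an inhibitor that growth factor signalling through the ERK kinases induces, had the second lowest p. Its levels were 26.8, 28, 26.9, 27.2 and 30.2 CPM in the 10 °C libraries and 18.7, 22.8, 18.3, 20.8 and 19 CPM in the 22 °C libraries, again without overlap (log2 fold change 0.48 ± 0.068 (SE), adjusted p = 0.0672). A list of 16 ERK feedback genes and targets was drawn up after the value of Spry4 had been seen, so its counts are a description. Of these, 3 rose and none fell: Spry4, the phosphatase Dusp4 (log2 fold change 0.59 ± 0.19 (SE)) and the AP-1 gene Fosl2 (log2 fold change 0.30 ± 0.12 (SE)). Spry4, which prompted the list, is thus 1 of the 3, and over all genes tested 2.82% rose and 2.96% fell. Spry1, Spry2, Dusp6, Etv4, Etv5 and Myc stayed between -0.12 and 0.13 on the log2 scale and did not pass. The median of the 16 was 0.096, and 5 rose without 10 °C library 4 or 22 °C library 2.

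**Figure D3:**
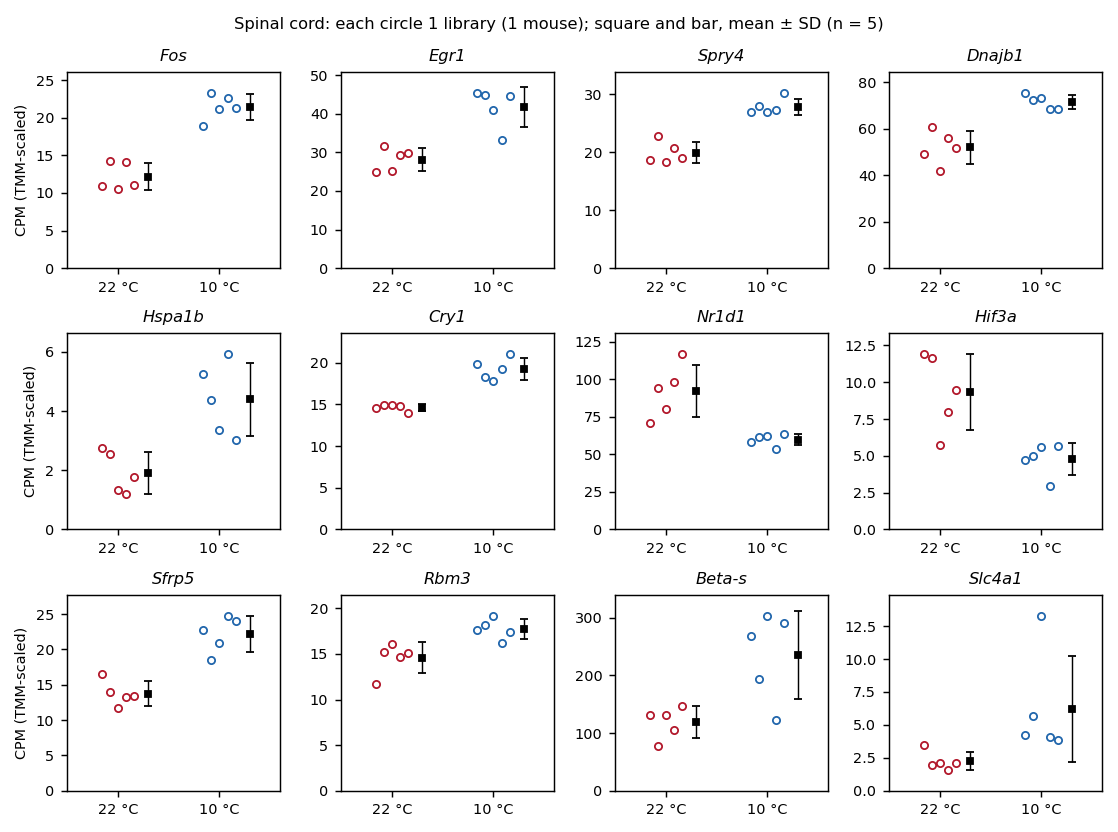
CPM (TMM-scaled) of 12 genes in the spinal cord. Each circle is 1 library from 1 mouse, at 22 °C on the left and at 10 °C on the right of each panel; the square and bar give the mean and SD of 5 libraries. The groups do not overlap for Fos, Egr1, Spry4, Dnajb1, Hspa1b, Cry1, Nr1d1, Hif3a, Sfrp5, Rbm3 and Slc4a1, and overlap for Beta-s.

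Heat shock chaperones were higher at 10 °C in part: 8 of 16 tested rose and none fell, where 2.82% of all genes were higher by this rule. The co-chaperone Dnajb1, which hands proteins to Hsp70, was at 75.5, 72.5, 73.5, 68.3 and 68.7 CPM in the 10 °C libraries and 49.3, 60.8, 42, 56.3 and 51.7 CPM in the 22 °C libraries. Its 10 °C libraries all lay above the 22 °C libraries (log2 fold change 0.46 ± 0.083 (SE), adjusted p = 0.263). The inducible Hsp70 gene Hspa1b was at 5.27, 4.39, 3.37, 5.92 and 3.03 CPM in the 10 °C libraries and 2.74, 2.54, 1.32, 1.21 and 1.76 CPM in the 22 °C libraries, also apart (log2 fold change 1.19 ± 0.26 (SE), adjusted p = 0.759). Its neighbour Hspa1a was at 5.27, 4.31, 4.28, 6.01 and 4.36 CPM in the 10 °C libraries and 2.74, 4.35, 2.49, 3.30 and 2.66 CPM in the 22 °C libraries and overlapped by a single 22 °C library (log2 fold change 0.64 ± 0.17 (SE)).

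Hspa1a and Hspa1b (chr17:34969190-34972156 and chr17:34956436-34959238, both on the minus strand) code for nearly the same sequence, and short reads can be lost or split between them, so the level of each alone is uncertain. Their summed level was 10.5, 8.69, 7.65, 11.9 and 7.39 CPM at 10 °C and 5.47, 6.89, 3.81, 4.5 and 4.42 CPM at 22 °C. The lowest sum at 10 °C, in library 5, was above the highest at 22 °C, in library 2.

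Smaller rises were seen in Hsph1, an Hsp110 (log2 fold change 0.22 ± 0.082 (SE)), in the constitutive Hsp70 Hspa8 (log2 fold change 0.20 ± 0.088 (SE)), in Hsp90ab1 (log2 fold change 0.14 ± 0.057 (SE)), in the mitochondrial chaperonin Hspd1 (log2 fold change 0.16 ± 0.053 (SE)) and in Chordc1, an Hsp90 co-chaperone (log2 fold change 0.16 ± 0.058 (SE)). In these 5 the 10 °C and 22 °C libraries overlapped. Hspe1, the partner of Hspd1, had log2 fold change 0.14 ± 0.068 (SE). The small heat shock proteins did not rise, with log2 fold changes of -0.23 for Hspb1, -0.13 for Hspb8 and 0.012 for Cryab, and neither did Hspa4, Dnaja1 or Bag3. The median of the 16 was 0.14 on the log2 scale. Without the 2 libraries with liver transcripts 8 rose, and without these and 10 °C library 4 there were 6, with 7 of 8 Schwann cell genes higher in both sets. Leaving out 10 °C library 1, 22 °C library 3 or 22 °C library 6 left 5, and without 22 °C library 3 there were also 2 that fell.

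The promoters of Hspa1b, Hspa1a and Chordc1 are shown to set the paralogs side by side and to place the heat shock element, the site at which heat shock factor binds. The capitals mark GAANNTTC on either strand, in RefSeq windows on GRCm38.p6 at chr17:34959189-34959488 (minus strand) for Hspa1b, chr17:34972107-34972406 (minus strand) for Hspa1a and chr9:18292017-18292316 (plus strand) for Chordc1.
Hspa1b: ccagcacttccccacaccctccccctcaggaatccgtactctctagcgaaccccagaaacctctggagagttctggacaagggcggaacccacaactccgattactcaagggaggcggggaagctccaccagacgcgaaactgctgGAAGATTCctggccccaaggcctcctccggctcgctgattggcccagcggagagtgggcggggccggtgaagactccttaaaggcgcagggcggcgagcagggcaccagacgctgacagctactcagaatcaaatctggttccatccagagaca
Hspa1a: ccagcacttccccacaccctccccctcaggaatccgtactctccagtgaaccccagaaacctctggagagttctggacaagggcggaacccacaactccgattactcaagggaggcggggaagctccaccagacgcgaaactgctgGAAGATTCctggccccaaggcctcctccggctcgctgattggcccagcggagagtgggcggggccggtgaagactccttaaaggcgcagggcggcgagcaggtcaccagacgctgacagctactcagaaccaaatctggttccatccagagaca
Chordc1: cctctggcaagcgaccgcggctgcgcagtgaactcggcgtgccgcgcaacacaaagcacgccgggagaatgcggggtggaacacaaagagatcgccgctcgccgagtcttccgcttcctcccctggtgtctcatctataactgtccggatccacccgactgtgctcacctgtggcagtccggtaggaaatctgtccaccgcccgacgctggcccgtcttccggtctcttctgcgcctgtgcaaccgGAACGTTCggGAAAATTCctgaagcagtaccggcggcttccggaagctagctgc
The windows of Hspa1a and Hspa1b differ at 4 of 300 positions (98.67% identical), and both hold the element 104 bases before the start. Chordc1 holds 2, which begin 4 bases before the start and at transcribed base 7. A gene is counted if any of its windows holds the element. Of the 12 listed chaperones with a window, 10 hold the element, against 7.86% of 32851 single windows. It was present in 5 of the 6 that rose and in 5 of the 6 that did not pass, and the windows of Dnajb1 held none.

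Of both cold-inducible RNA-binding proteins, Rbm3 rose and Cirbp did not pass the test. Rbm3, an RNA-binding protein that cooling of cells induces, was at 17.6, 18.2, 19.2, 16.2 and 17.5 CPM in the 10 °C libraries and 11.7, 15.2, 16.1, 14.7 and 15.2 CPM in the 22 °C libraries. It rose 1.22-fold without overlap (log2 fold change 0.28 ± 0.084 (SE), adjusted p = 0.780 by edgeR). Cirbp, its close relative, was at 50.4, 56.6, 46.7, 62.7 and 51.7 CPM in the 10 °C libraries and 55.9, 57.5, 80.1, 66.6 and 52.9 CPM in the 22 °C libraries. Its groups overlapped (log2 fold change -0.22 ± 0.11 (SE)). Cirbp fell past the limit without 10 °C library 4 (-0.29) or 22 °C library 6 (-0.28), and without the former and the 2 libraries with liver transcripts (-0.28), so that in these sets 1 of the pair rose and 1 fell.

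Among the clock genes, Cry1 and Nr1d1 stood out. Cry1, a repressor of the clock loop, was at 19.9, 18.3, 17.8, 19.3 and 21 CPM in the 10 °C libraries and 14.6, 15, 14.9, 14.8 and 13.9 CPM in the 22 °C libraries. The 22 °C libraries lay within 13.9 to 15 CPM and all 10 °C libraries above them (log2 fold change 0.40 ± 0.058 (SE), adjusted p = 0.0672). Nr1d1 (Rev-erbα), a nuclear receptor that represses Arntl and Cry1, moved the other way, at 58.3, 61.7, 62.2, 53.9 and 63.4 CPM in the 10 °C libraries and 71.1, 94.4, 80.2, 98.3 and 117 CPM in the 22 °C libraries. It fell below the whole 22 °C range (log2 fold change -0.62 ± 0.11 (SE), adjusted p = 0.263). The last exons of Nr1d1 (chr11:98767932-98775333) overlap those of Thra on the other strand over 8.55% of its exon bases.

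In all, 4 of 18 clock genes rose (Cry1, Arntl, Per1 and Per2) and 2 fell (Nr1d1 and Bhlhe40). The shares over all genes tested were 2.82% and 2.96%. Arntl (Bmal1), the activator of the loop, was at 24.2, 23.1, 23.1, 22.5 and 23.9 CPM in the 10 °C libraries and 24.8, 21, 18.3, 19 and 16.8 CPM in the 22 °C libraries and overlapped through 22 °C library 1 (log2 fold change 0.22 ± 0.090 (SE)). Per1 and Per2 rose by 0.14 and 0.14 on the log2 scale, just past the limit. Bhlhe40, a further repressor, fell by 0.12. Dbp, an output gene of the clock, was at 28.4, 31.7, 33.2, 59.2 and 33 CPM in the 10 °C libraries and 31.8, 39.2, 51.1, 45.7 and 60.6 CPM in the 22 °C libraries (log2 fold change -0.30 ± 0.21 (SE)), with 10 °C library 4 far above the other 4. Without that library Dbp fell past the limit, by 0.53 on the log2 scale, and by 0.67 without it and the 2 libraries with liver transcripts. Nr1d2, Per3, Cry2, Tef, Hlf, Nfil3 and Clock did not pass either. The median of the 18 was -0.014. This count depends on single libraries: with any one left out other than 22 °C library 2, 2 clock genes rose, and 1 to 3 fell. Cry1 and Nr1d1 kept p under 0.05 in all 19 alternative analyses. The time of day of collection is not given in the sources used here, and its part in these values was not tested.

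The promoter of Cry1 is shown for its E-box, the site of the activators Clock and Bmal1 (RefSeq, GRCm38.p6, chr10:85185005-85185304, minus strand; capitals mark CACGTG).
Cry1: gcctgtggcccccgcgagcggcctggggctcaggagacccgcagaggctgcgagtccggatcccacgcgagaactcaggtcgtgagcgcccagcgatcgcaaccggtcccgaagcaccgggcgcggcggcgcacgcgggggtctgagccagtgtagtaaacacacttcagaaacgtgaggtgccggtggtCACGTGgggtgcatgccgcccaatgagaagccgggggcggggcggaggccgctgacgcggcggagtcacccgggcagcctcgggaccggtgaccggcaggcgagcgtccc
The E-box starts 60 bases before the start of transcription. The same letters are in 7.15% of all single windows and in 4 of the 15 clock genes with a window (Cry1, Per1, Tef and Bhlhe41), 2 of which rose. A gene is counted here if any of its windows holds them.

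Of 14 glucocorticoid-responsive genes, 4 fell and none rose, where 2.96% of all genes tested fell and 2.82% rose. Hif3a, a hypoxia-inducible factor relative that glucocorticoids induce, was at 4.75, 4.99, 5.62, 2.98 and 5.68 CPM in the 10 °C libraries and 11.9, 11.6, 5.73, 8.00 and 9.47 CPM in the 22 °C libraries. It fell without overlap (log2 fold change -0.96 ± 0.21 (SE), adjusted p = 0.759). Zbtb16 (PLZF), a transcription factor, was at 14.8, 13.6, 13.8, 17.9 and 15.8 CPM in the 10 °C libraries and 24.1, 24.9, 15.5, 18.3 and 23.4 CPM in the 22 °C libraries (log2 fold change -0.49 ± 0.13 (SE)). The groups overlapped only through 22 °C library 3 and 10 °C libraries 4 and 5. The metallothionein Mt2 fell from 137 ± 14.5 to 114 ± 14.6 CPM (SD, n = 5 each), while Mt1 did not pass (log2 fold change 0.020 ± 0.052 (SE)). Fkbp5, a chaperone of the glucocorticoid receptor, fell by 0.12 on the log2 scale. The other 10, among them Tsc22d3 (-0.038), Cdkn1a (-0.025), Sgk1 (0.29) and Ddit4 (0.27), did not pass, and the median of the list was -0.035. Over the alternative analyses 3 to 5 of the list fell and 0 to 3 rose. An antisense transcript covers 73.5% of the exon bases of Mt2, and the strand setting of the counting is not given in the sources used here. Among the other genes named, those with the most exon bases shared with a gene on the other strand are Hoxb3 (52.9%) and Atp2a1 (21.9%), so reads of these pairs may not be told apart.

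Transcripts of red cells were higher at 10 °C, and all 3 tested genes of the list rose, where 2.82% of all genes tested did. The β-globin gene, listed as Beta-s, was at 268, 194, 304, 123 and 291 CPM in the 10 °C libraries and 131, 77.1, 132, 105 and 147 CPM in the 22 °C libraries (log2 fold change 0.99 ± 0.23 (SE)). Alas2, the erythroid enzyme of haem synthesis, followed it at 25, 18.2, 30.3, 11 and 26 CPM in the 10 °C libraries and 12.5, 7.83, 12.7, 10.3 and 12.3 CPM in the 22 °C libraries (log2 fold change 0.99 ± 0.23 (SE)). In both genes 10 °C library 4 lay within the 22 °C range and the other 4 above it. The band 3 anion exchanger Slc4a1 was at 4.23, 5.66, 13.3, 4.10 and 3.82 CPM in the 10 °C libraries and 3.48, 1.95, 2.11, 1.61 and 2.13 CPM in the 22 °C libraries, without overlap (log2 fold change 1.46 ± 0.36 (SE)).

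Ctse (log2 fold change 1.67 ± 0.45 (SE)) and the blood group gene Ermap (log2 fold change 1.08 ± 0.37 (SE)), both high in erythroid cells, were called too. For Ermap the groups overlapped through 22 °C library 6, and for Ctse they did not overlap. Levels in 10 °C library 3 were the highest for every red cell gene named, at 3.73 CPM for Ctse, and the same library held the most of the marrow and platelet genes Mpo (5.55 CPM), Ppbp (4.64 CPM) and Mki67 (11.2 CPM). The 8 neutrophil markers summed to 173 CPM there, against 33.3 to 74.7 CPM in the other libraries. All 3 red cell genes of the list also rose without 10 °C library 3, and without it and 22 °C library 1. In the 8 libraries without liver transcripts, the median of the 3 log2 fold changes was 0.93, against 0.99 in all 10. The α-globin genes Hba-a1 and Hba-a2 are listed at 0 in every library. Whether blood left in the vessels has a part in these values was not tested.

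Oligodendrocyte transcripts were slightly lower. All 12 markers had negative log2 fold changes, from -0.23 to -0.042 with a median of -0.076, and 2 fell by the test. Of the 14382 genes tested 7179 had negative values, and 2.96% fell. Mbp, myelin basic protein, was at 16598, 17044, 16806, 13437 and 16808 CPM in the 10 °C libraries and 17121, 17788, 18537, 20606 and 17526 CPM in the 22 °C libraries. The groups did not overlap (log2 fold change -0.18 ± 0.071 (SE)). Mog, on the outer myelin surface, fell by 0.23. Among precursor cell markers, Pdgfra (log2 fold change -0.18 ± 0.054 (SE)) and Gpr17 (log2 fold change -0.19 ± 0.074 (SE)) fell, 2 of 10, with a list median of -0.16 and all 10 values negative.

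Of 19 genes listed under fatty acid synthesis 3 fell and none rose, with 4 values positive, where 2.96% of all genes tested fell. The 3 that fell make or modify galactosylceramide, and none of them builds fatty acids. Ugt8a, which makes galactosylceramide, was at 337, 341, 354, 218 and 340.4 CPM in the 10 °C libraries and 404, 376, 383, 377 and 369 CPM in the 22 °C libraries (log2 fold change -0.26 ± 0.11 (SE)). Fa2h, which hydroxylates its fatty acid, fell by 0.21 on the log2 scale and Gal3st1, which sulfates galactosylceramide, by 0.12. In cholesterol synthesis 2 of 24 fell, Hmgcs1 (log2 fold change -0.18 ± 0.055 (SE), groups apart) and Sqle (log2 fold change -0.11 ± 0.043 (SE)). The lowest Mbp and Ugt8a values were both in 10 °C library 4. Without it 4 oligodendrocyte genes, 4 precursor genes, 5 of the fatty acid synthesis list and 3 cholesterol synthesis genes fell. Without it and the 2 libraries with liver transcripts these counts were 5, 3, 8 and 7. In the other direction, 1 oligodendrocyte gene fell without 22 °C library 4 and 1 precursor gene without 22 °C library 2, 4 or 6. Of the fatty acid synthesis list 1 gene fell without 10 °C library 1, 22 °C library 4 or 22 °C library 6.

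Astrocyte markers split, with 2 higher (Fgfr3 0.23, Aldh1l1 0.15) and 2 lower (Aqp4 -0.23, S100b -0.13) of 12. Of all genes tested 2.82% rose and 2.96% fell. Without the 2 libraries with liver transcripts none of the 12 rose and 2 fell, and none rose either without 22 °C library 1, 3 or 6 alone. Fabp7, a fatty acid-binding protein of astrocytes and precursors that is in none of the lists, was among the 12 lower genes of lowest p, at 37.1, 31.7, 27.3, 40.7 and 31.6 CPM in the 10 °C libraries and 49, 47.6, 40.9, 41.3 and 45.1 CPM in the 22 °C libraries (log2 fold change -0.41 ± 0.10 (SE)). Of the 12 microglial and 10 endothelial markers, none passed in either direction, with medians of -0.066 and -0.054. Of the microglial markers 4 fell without 10 °C library 4, 2 without the 2 libraries with liver transcripts and 5 without all 3. The mural cell gene Abcc9 (-0.19) fell, 1 of 8.

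Neuronal markers did not pass the test, with 1 exception among the excitatory ones. The shares over all genes tested were 2.82% that rose and 2.96% that fell. None of 12 pan-neuronal markers passed (log2 fold changes from -0.073 to 0.095), none of 10 cholinergic and motor neuron markers (-0.22 to 0.21) and none of 10 inhibitory markers (-0.11 to 0.16). The neuropeptide Cck rose, 1 of 11 excitatory markers and 1 of 19 neuropeptides (log2 fold change 0.34 ± 0.15 (SE)), with its highest level in 10 °C library 4, and of the 10 libraries it kept its call only without 10 °C library 3 or 5 or 22 °C library 2. Without 10 °C library 4, 2 pan-neuronal markers rose, and without 22 °C library 2 there were 2 inhibitory markers that rose. Of the cholinergic and motor neuron markers 1 fell without 10 °C library 3 or without the 2 libraries with liver transcripts. Without the latter and 10 °C library 4 there were 2 that fell (median -0.19). Receptor genes gave the same picture. None of 23 glutamate, 21 GABA and glycine and 20 adrenergic and serotonin receptor genes passed with all 10 libraries. Without 10 °C library 1, 2, 3, 4 or 5 or 22 °C library 6, 1 adrenergic or serotonin receptor gene passed. Of GABA and glycine receptor genes 1 passed without 10 °C library 3, 4 or 5 or 22 °C library 2, 3 or 4. For glutamate receptor genes 1 passed without 10 °C library 5. The muscarinic receptor Chrm5 was the 1 of 11 acetylcholine receptor genes that fell (log2 fold change -0.59 ± 0.19 (SE)), at 1.52 to 3.14 CPM at 10 °C and 3.13 to 4.42 CPM at 22 °C. Of 15 thermosensitive TRP and two-pore potassium channels tested, Kcnk12 rose (log2 fold change 0.41 ± 0.17 (SE)) and none fell, but Kcnk12 did not pass without 10 °C library 4 or 22 °C library 1, 3 or 6. Trpm8, the cold sensor of skin afferents, was below the filter on low counts.

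**Figure D4:**
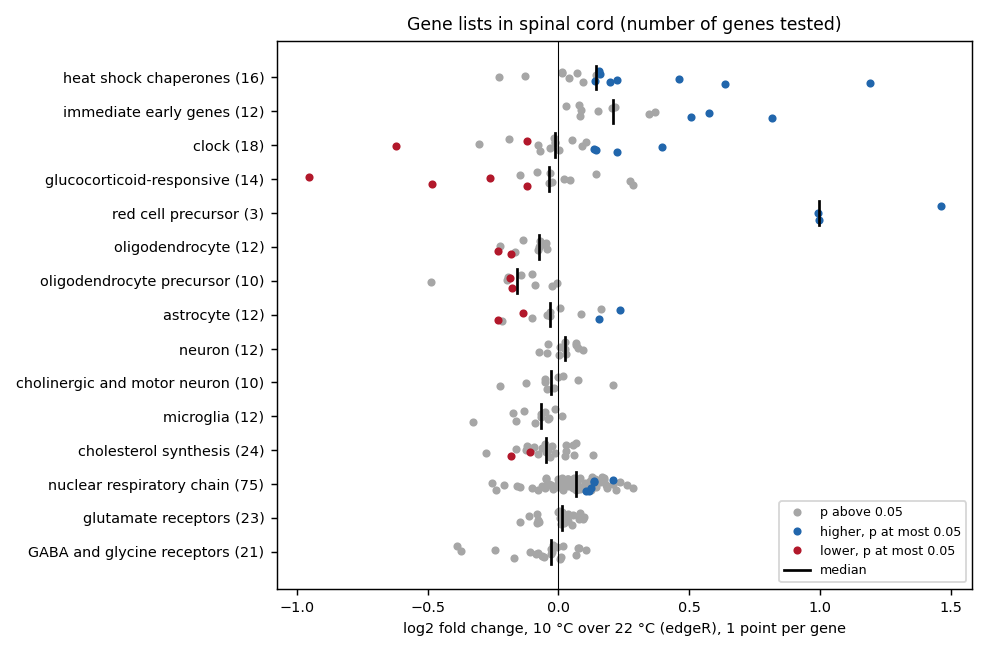
Log2 fold change (10 °C over 22 °C, horizontal axis) of each tested gene of 15 lists in spinal cord; blue points are higher and red points lower at p of at most 0.05, and the black bar is the list's median. The number of genes tested stands beside each name. Heat shock chaperones hold 8 blue points of 16, all 3 red cell genes are blue, and glutamate and GABA receptors hold no coloured point.

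Among genes of general metabolism, 6 of 75 nuclear respiratory chain genes rose and none fell (Atp5a1, Atp5b, Cox5a, Ndufb9, Ndufs4 and Ndufs6), by 0.10 to 0.21 on the log2 scale. By this rule 2.82% of all genes tested rose and 2.96% fell. The list's median was 0.067, and 10 °C library 4 had the highest level of all but Cox5a. This count depends on single libraries: it was 2 without 10 °C library 1, 22 °C library 1 or 22 °C library 2, 3 without 22 °C library 3, 1 without 22 °C library 6 or without both libraries with liver transcripts, 4 without 22 °C library 4 and 12 without 10 °C library 5. None of 61 cytosolic ribosomal protein genes passed, while 6 rose without 10 °C library 3 and 2 without 10 °C library 4. The lactate transporter Slc16a1 fell, 1 of 22 glycolysis and lactate genes (-0.16), and Angptl4, 1 of 21 in fatty acid oxidation (-0.46). Herpud1 and Atf4 rose by 0.097 and 0.095, 2 of 17 genes of the integrated stress and unfolded protein response, a count of 0 without 10 °C library 1, 1 without 22 °C library 3 or 6, and 5 without the 2 libraries with liver transcripts (median 0.17). The interferon gene Irf7 fell by 0.30, 1 of 15, against 3 without 22 °C library 2 or 3, 2 without 10 °C library 5 and none without 22 °C library 4. No member passed among 8 thyroid hormone, 11 MHC, 14 complement, 26 collagen and matrix and 10 IGF axis genes. Of 2 tested adipocyte genes Cidea fell (-0.37, at 4.74 against 6.14 CPM), and of 4 bone and cartilage genes Sp7 (-0.57). Of the 7 ependymal, 4 sensory ganglion and 4 choroid plexus genes tested none passed.

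Some genes of low p belong to none of the lists. Sfrp5, a secreted inhibitor of Wnt signals, was at 22.7, 18.5, 20.9, 24.8 and 24.1 CPM in the 10 °C libraries and 16.5, 13.9, 11.6, 13.2 and 13.4 CPM in the 22 °C libraries. It rose 1.61-fold without overlap (log2 fold change 0.69 ± 0.10 (SE), adjusted p = 0.0672). Rnf43, a membrane ubiquitin ligase that also restrains Wnt signals, fell without overlap, from 7.48 ± 0.697 to 5.15 ± 0.595 CPM (SD, n = 5 each). The exonuclease Isg20 was at 2.45, 1.95, 3.41, 2.19 and 1.82 CPM in the 10 °C libraries and 1.46, 1.22, 1.21, 1.25 and 1.16 CPM in the 22 °C libraries and rose without overlap (log2 fold change 0.91 ± 0.18 (SE), adjusted p = 0.538). Tubb2b, a tubulin of young neurons and glia, fell by 0.26 with the groups apart (adjusted p = 0.759). The chemokine Cxcl14 (0.28) and the kinase Map3k19 (0.40) rose and Esyt3 (-0.50), Smim5 (-0.46), Atp10a (-0.35), Slc16a9 (-0.31), the glutamine transporter Slc38a3 (-0.22), Dcaf15 (-0.24) and Ankrd44 (-0.23) fell, each with 5 libraries apart from the other 5. Ccdc117 rose (0.35) with 1 overlapping library.

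Of the 39 called genes, 10 had groups that did not overlap: Fos, Hspa1b, Slc4a1, Ctse, Sfrp5, Isg20, Drd1a, Nr1d1, Hif3a and Tlr1. Many of the others were at low levels. Higher at 10 °C, with means under 3 CPM in both groups, were the dopamine receptor Drd1a (0.61), the homeobox gene Uncx (0.96), Amh (0.69), Rslcan18 (0.67), Tmem252 (0.81), Tnfrsf25 (0.76), Prtn3 (0.59) and 1 predicted gene. Lower were Cilp (-0.98), Gpr133 (-0.79), Slc22a18 (-0.73), Gmnc (-0.66), Ly96 (-0.65), Adamts14 (-0.65), Dmrta1 (-0.64), Foxr2 (-0.60) and the bacterial lipoprotein receptor Tlr1 (-0.59), and Car3, a carbonic anhydrase of muscle and fat (-0.67), at somewhat higher levels. Calls of 3 higher genes rested on 10 °C library 4. Pcsk1n, an inhibitor of a prohormone convertase, was at 323, 335, 269, 1000.3 and 294 CPM in the 10 °C libraries and 222, 333, 277, 263 and 248 CPM in the 22 °C libraries (log2 fold change 0.72 ± 0.33 (SE)). Bcl7c and Spata5l1 had the same library at 10.4 and 8.25 CPM, above all others, and without it the log2 fold changes of the 3 genes were 0.18, 0.22 and 0.30, and none was past the limit.

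Ucp1, Thrsp, Nnat, Atp2a1 and Lars2 were named whatever their values, and none passed in the cord. Ucp1, the uncoupling protein of brown fat, was below the filter at 0.222 to 1.41 CPM at 10 °C and 0.142 to 0.861 CPM at 22 °C. Thrsp, a lipogenic regulator, had log2 fold change -0.033 ± 0.086 (SE), and Nnat, neuronatin, log2 fold change -0.24 ± 0.12 (SE). The muscle calcium pump Atp2a1 was at 0.222, 0.279, 10.2, 12.2 and 0.250 CPM in the 10 °C libraries and 5.08, 0.661, 0.641, 7.52 and 41.2 CPM in the 22 °C libraries (log2 fold change -1.27 ± 1.19 (SE)). Its highest level was in 22 °C library 6, which also had the highest sum of muscle markers, and its direction turned without that library, to 0.41. Lars2, the mitochondrial leucyl-tRNA synthetase, was at 1359 CPM in 10 °C library 4 and at 63 to 151 CPM in the others. Its direction also turned without that library, from 1.77 to −0.38. The same library held the most ribosomal RNA-like counts, and their part in the Lars2 value was not tested.

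The same comparison was made in brain and hypothalamus, with 3 libraries of 2 pooled mice at each temperature, prepared with another kit and sequenced at another site. Tissue, kit, site and pooling cannot be told apart in these differences. No gene's change in the cord differed from that in brain at an adjusted p under 0.05 by edgeR's quasi-likelihood test of the interaction (0 of 14324, 0%, with 1565 at an unadjusted p of 0.05 or less), while DESeq2 gave 5. Against hypothalamus the edgeR count was 0 of 14205 (0%, with 501 at the unadjusted limit) and that of DESeq2 also 0. In their own edgeR fits brain had 557 and hypothalamus 883 genes past the unadjusted limit and none (0) at an adjusted p under 0.05. A 22 °C brain library holds liver transcripts, and without it the edgeR interaction count at an adjusted p under 0.05 stayed at 0. The DESeq2 count, the unadjusted counts and the brain values given below include that library. All 7 hepatocyte genes tested in brain were lower in the cold at the unadjusted limit (median log2 fold change -11.1). In hypothalamus 2 of 7 were higher (median 1.98). The part of liver transcripts in the other values of these tissues was not tested.

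Fos was higher at 10 °C in all 3 parts of the nervous system, by 0.81 ± 0.099 (SE, log2 scale) in the cord, 1.23 ± 0.24 in brain and 0.51 ± 0.16 in hypothalamus. The latter 2 passed the unadjusted limit as well, with adjusted p of 0.707 and 0.763 by edgeR. The change in the cord minus that in brain was -0.49 ± 0.23 and minus that in hypothalamus 0.31 ± 0.21, with adjusted p of 0.456 and 0.998 by edgeR. Dnajb1 had log2 fold changes of 0.46, 0.47 and 0.41 in the same order, past the unadjusted limit in each. Egr1 rose by 0.88 ± 0.18 in brain and had 0.16 ± 0.12 in hypothalamus, which did not pass.

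Nr1d1 fell by 0.28 ± 0.083 on the log2 scale in hypothalamus and had -0.21 ± 0.14 in brain, which did not pass. Cry1 had 0.11 and 0.16 there, and its change in the cord exceeded these by 0.21 ± 0.10 and 0.23 ± 0.10, with adjusted p of 0.461 and 0.998 by edgeR. Hif3a fell in hypothalamus (-0.75 ± 0.21) and had -0.22 ± 0.32 in brain, which did not pass. Of the 8 chaperones that rose in the cord, Dnajb1 also rose in brain and Dnajb1, Hspa1a, Hspa1b and Chordc1 in hypothalamus at p of at most 0.05. Over all genes, 557 of 14288 tested in brain and 883 of 14350 in hypothalamus passed this limit in either direction. In brain 8 of 12 immediate early genes rose, with a median of 0.87, and in hypothalamus 3 of 12. Of the 12 oligodendrocyte markers 9 fell in hypothalamus (median -0.17) and none in brain (median -0.016). All 3 red cell genes rose in hypothalamus (median 0.55), and none passed in brain (median 0.47). Of the 2 cold-inducible RNA-binding protein genes, 1 rose and 1 fell in hypothalamus and none passed in brain. The counts of the tissues were not compared by a test.

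**Figure D5:**
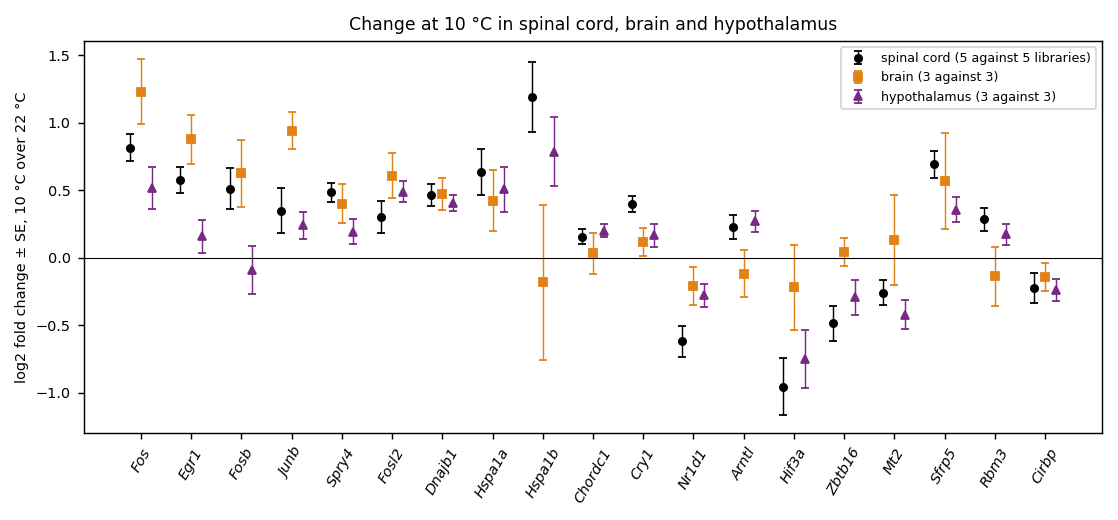
Log2 fold change at 10 °C over 22 °C with its SE (edgeR) for 19 genes in spinal cord (circles, 5 against 5 libraries), brain (squares, 3 against 3) and hypothalamus (triangles, 3 against 3). Fos and Dnajb1 lie above 0 in all 3 tissues, while Hspa1b and Rbm3 lie below 0 in brain with wide errors.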

How the data were processed

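Polyadenylated RNA of the spinal cords of 10 mice was sequenced with a stranded mRNA kit as single reads of 50 bases. The authors deposited a table of raw counts per gene, not normalized, made by mapping reads to the mm10 genome and counting them per gene. The submitters' processing notes name STAR 2.5.3a, Picard 1.141 and HTSeq 0.6p1, while the study's methods give other versions of STAR and HTSeq. The strand setting and multi-mapping treatment of the counting are not given in the sources used here. Gene symbols of the table were joined to GENCODE M21 positions (GRCm38) by name, for 22978 of 23420 genes.

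Libraries were grouped by the labels' treatment and the table's column names. The treatment protocol text of all 106 samples names 34 °C and 4 weeks, at odds with these groups, so the temperatures were taken from the study's methods. Counts were TMM-scaled, low genes (mean log2 CPM of 0 or less) were dropped, and groups were compared with edgeR 4.0.16 (quasi-likelihood F test, two-sided, R 4.3.3) with no covariates. This test replaced the exact test of the study, which was run as an alternative, as was DESeq2 1.42.0. The SE is the size of the log2 fold change over the square root of F. A call needed a fold above 1.5 and p, unadjusted, no higher than 0.05. For brain and hypothalamus the tissue by temperature term was tested on genes with the same symbol. The test was tried on simulated counts of 14382 genes, where it called 12 unchanged genes at an adjusted p under 0.05.

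Named genes are those of lowest p (up to 12 in each direction), every called gene, the members of the gene lists at p under 0.05 with the 4 of lowest p, and 12 genes named outright. A few genes are not reported here and were left out of the lists. The lists and the comparison were chosen with earlier results of these data known. Alternatives were other tests, scalings and filters, each library left out, and a replicate block. Promoter windows come from RefSeq (GRCm38.p6), matched by symbol. Library totals are in the report, and intervals were not computed for single libraries.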

Additional observations from a re-analysis of the deposited data

Results flagged for a closer look

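Values of single libraries were compared with the other 4 of their group by Dixon's ratio, the gap to the nearest library over the range of the group, whose critical value is 0.71 for 5 libraries. Of 146 groups looked at, for 62 genes and 11 marker sums, 24 held a library past it. The genes were chosen by p or by name and share the same libraries, so this count has no rate by chance to be set against.

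In 10 °C library 3 the ratio was 0.853 for Ctse, 0.818 for Ermap, 0.859 for Mki67, 0.784 for Mpo, 0.901 for Ppbp and 0.806 for Slc4a1, genes of red cells, marrow and platelets. The same library stood apart in the hepatocyte sum (0.994) and the neutrophil sum (0.893). In 10 °C library 4 it was 0.880 for Bcl7c, 0.845 for Dbp, 0.982 for Lars2, 0.910 for Pcsk1n, 0.754 for Spata5l1, 0.713 for Tnfrsf25 and 0.963 for the ribosomal RNA-like sum. In 10 °C library 5 it was 0.729 for Gpr133 and 0.729 for the sensory ganglion sum. All of these were the highest of their group.

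At 22 °C, library 1 was the highest for Prtn3 (0.718), Slc4a1 (0.720), the hepatocyte sum (0.998) and the sensory ganglion sum (0.973), where it held 38.4 CPM against 5.01 to 5.91 CPM in the other 4. Library 6 was the highest for Atp2a1 (0.830), Mki67 (0.731) and the muscle sum (0.756). No difference between the change in the cord and in brain or hypothalamus passed an adjusted p of 0.05 by edgeR.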

How the results depend on the processing

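The 39 calls became 88 with edgeR's filterByExpr, 229 with a filter of 1 count, 77 without the 2 libraries with liver transcripts and 79 without these and 10 °C library 4. Leaving out single libraries gave 29 to 114, the highest without 22 °C library 2, then 81 without 10 °C library 5 and 77 without 10 °C library 3. The exact test (44), DESeq2 (41) and scaling by library size (42) stayed within 1.5 times. The count at an adjusted p under 0.05 was 12 by the exact test, 17 by DESeq2 and 0 to 4 with single libraries left out. It was 0 without the 2 libraries with liver transcripts. The interaction with brain gave 5 genes by DESeq2, and that with hypothalamus 0 to 1 with single libraries left out, the 1 without 10 °C library 5.

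Replicate numbers are shared by 4 pairs of libraries, whose deviations correlated at −0.255, 0.184, −0.278 and 0.134. The highest correlation between the groups, 0.601, was that of 10 °C library 3 and 22 °C library 1, the 2 libraries with liver transcripts. With 4 pairs, these values cannot decide whether equal numbers mark paired mice. With the replicate block 52 genes were called and 0 passed the adjusted p, and without it the same 8 libraries gave 53 and 0.

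Of 127 genes followed, 121 were past the p limit, of which 53 kept their direction and stayed past it under every alternative and 68 lost it under at least 1. The other 6 (Cirbp, Dbp, Nnat, Thrsp, Atp2a1 and Lars2) each passed it or turned under at least 1. Directions turned for the log2 fold change of Atp2a1 (−1.99 to 0.41 with single libraries left out, positive without 22 °C library 6, 0.19 with the replicate block and 0.72 in its 8 libraries unblocked), the log2 fold change of Lars2 (−0.38 to 2.04, negative without 10 °C library 4, and −0.25 without that and the 2 libraries with liver transcripts) and the log2 fold change of Thrsp (−0.089 to 0.022, positive without 10 °C library 5). The cause was not tested. The alternatives that leave out 2 or 3 libraries together, use the 8 libraries unblocked or leave out the brain library were chosen after seeing the data.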

Other observations

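A list of thermogenic genes that the study draws on had 133 members tested in the cord, of which 7 were higher and 4 lower at p of at most 0.05, with a median log2 fold change of -0.00099. The 7 became 3 without 10 °C library 1, 10 °C library 5 or 22 °C library 4, 4 without 22 °C library 1 or 6, and 10 without 10 °C library 4. Of a like list of fatty acid genes 223 were tested, 4 of them higher and 12 lower, with a median of -0.020. With single libraries left out 0 to 7 of these were higher, the lowest count without 22 °C library 6 and the highest without 10 °C library 4, and the 12 became 7 without 10 °C library 1 or 22 °C library 4. Over all genes tested 2.82% were higher and 2.96% lower.

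Of 2 tested ribosomal RNA-like transcripts, 7 tested neutrophil markers and no lymphocyte marker above the filter, only the neutrophil gene Mpo passed (log2 fold change 1.08, adjusted p = 0.780 by edgeR), and it did not without 10 °C library 3.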
